A study of Mus musculus with 6 samples.

Results

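The lymphocyte antigen 6 (Ly6) genes described here are Ly6g, Ly6c1, Ly6c2, Ly6a, Ly6d, Ly6e and Ly6i, taken by symbol from a table of 55335 genes counted by RNA sequencing. All 7 were found, all lie in one cluster on chromosome 15, and all 7 passed the filter on low counts. The cells were CD11b+ cells that flow cytometry had sorted from the spleens of wild-type mice. One group had undergone MI with renal denervation (MI+RDN, n = 3), in which the nerves of the kidney are ablated, and the other had MI alone (MI, n = 3), where MI is myocardial infarction. Both groups therefore carried an infarct, and no sham or uninjured animals were compared. The labels give no strain, age, sex, time after infarction or number of mice per replicate. The series states 3 biological replicates a group, but the labels do not say whether each came from a single animal or a pool. The p-values here therefore measure spread among 6 libraries, and how much of it is technical cannot be told.

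Ly6 proteins are small surface proteins with a three-finger fold that are held on the membrane by a glycosylphosphatidylinositol (GPI) anchor. In the mouse spleen Ly6G is the standard marker of neutrophils, and the Ly6C antigen, encoded by the paralogs Ly6c1 and Ly6c2, separates inflammatory from patrolling monocytes. Ly6a encodes Sca-1, an antigen of haematopoietic stem cells and activated lymphocytes that interferons induce. Ly6e encodes an interferon-inducible antigen found on many cell types, and Ly6d encodes the ThB antigen of the B lineage. In bulk RNA, fewer cells of a type and less RNA per cell cannot be told apart.

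The Ly6c1 and Ly6c2 rows rest on sequences that are nearly the same, which bears on how far the 2 rows can be separated. In the GENCODE transcripts of GRCm38, their coding sequences matched at 384 of 393 aligned bases (97.7%). Of the 9 differences, 6 lay in coding bases 1 to 90, which are shown here because they hold most of the differences in the coding sequence, with the differing bases in capitals.
Ly6c1: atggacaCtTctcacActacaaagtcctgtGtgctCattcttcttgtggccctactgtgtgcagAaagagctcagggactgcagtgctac
Ly6c2: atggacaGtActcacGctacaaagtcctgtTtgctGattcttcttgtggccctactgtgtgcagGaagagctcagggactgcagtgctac
Of all 50-base windows of the principal transcripts, 36.7% in Ly6c1 and 32.99% in Ly6c2 occurred unchanged in a transcript of another gene, mostly in each other. At 100 bases these shares were 15.3% for Ly6c1 and 15.8% for Ly6c2. The other members were easier to separate. At 50 bases the shared windows made up 10.04% of Ly6a, 4.97% of Ly6i and 0.448% of Ly6g, and at 100 bases none of these 3 had any. Ly6d and Ly6e had none at either length. The next closest pair in coding sequence was Ly6a and Ly6i, with 86.3% identity, and Ly6e was the farthest from Ly6c1 and from Ly6c2, at 57.2% with each.

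Ly6g, Ly6c1 and Ly6c2 were also the members for which RefSeq promoters of GRCm38.p6 were at hand. The 250 bases before the first listed start of each are given because these 3 genes moved together in the comparison below. Capitals mark the run of at least 12 bases that all 3 hold.
Ly6g, chr15:75155011-75155260, plus strand: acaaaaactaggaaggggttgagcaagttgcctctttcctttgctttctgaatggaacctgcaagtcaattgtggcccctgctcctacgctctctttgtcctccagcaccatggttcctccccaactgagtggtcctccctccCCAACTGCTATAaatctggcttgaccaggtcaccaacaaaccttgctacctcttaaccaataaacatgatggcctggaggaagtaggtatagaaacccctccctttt
Ly6c1, chr15:75048838-75049087, minus strand: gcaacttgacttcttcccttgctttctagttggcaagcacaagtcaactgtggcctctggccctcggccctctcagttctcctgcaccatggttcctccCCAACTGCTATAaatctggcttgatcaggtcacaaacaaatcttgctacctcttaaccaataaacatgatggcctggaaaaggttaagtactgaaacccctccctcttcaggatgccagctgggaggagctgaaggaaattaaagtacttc
Ly6c2, chr15:75111972-75112221, minus strand: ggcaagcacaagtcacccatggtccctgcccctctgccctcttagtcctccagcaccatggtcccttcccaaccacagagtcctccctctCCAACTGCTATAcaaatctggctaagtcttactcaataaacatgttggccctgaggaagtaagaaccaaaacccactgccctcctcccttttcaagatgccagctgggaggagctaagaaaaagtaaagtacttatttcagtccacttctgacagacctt
The shared run, CCAACTGCTATA, started 107 bases before the listed start in Ly6g, 151 in Ly6c1 and 160 in Ly6c2. It was found in 4 of 27025 promoters of the same length, those of Ly6g, Ly6c1, Ly6c2 and Ly6a2. Where the promoters could be aligned, Ly6g matched Ly6c1 at 83.5% of bases and Ly6c2 at 78.03%, and Ly6c1 matched Ly6c2 at 75.9%.

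A search of both strands for GAGGAA, the core that the myeloid factor PU.1 binds, gave 2 matches in Ly6g and 1 each in Ly6c1 and Ly6c2, and 23.1% of all promoters held at least 1. The C/EBP motif TTGCNNAA gave 1 match in Ly6g and 0 in the other two, against 9.55% of all promoters with a match. The interferon-stimulated response element and the gamma-activated site TTCNNNGAA gave 0 matches in all 3 windows, and 3.04% and 7.18% of all promoters held them. No matches overlapped. These matches describe letters in a window and not binding.

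The sort marker was abundant in all libraries. Itgam, which encodes CD11b, stood at 1598 ± 95.2 CPM in MI+RDN and 1133 ± 150 CPM in MI (SD, n = 3). CPM here is the count scaled to a common library size, after each library size was multiplied by its edgeR TMM scaling factor. These factors were 0.938, 0.978 and 0.945 in MI+RDN replicates 1 to 3, against 1.037, 1.025 and 1.085 in MI replicates 1 to 3. All MI+RDN factors were below all MI factors, so the scaling itself raised CPM in MI+RDN relative to MI for every gene. Markers of neutrophils summed to 15184 CPM or more in every library. Sums were lower for erythroid markers, at 172 to 776 CPM, B cell markers, at 239 to 717 CPM, and T cell markers, at 27.6 to 78.8 CPM. Endothelial markers summed to 45.8 to 74.3 CPM, most of it from Pecam1 at 42.4 to 70.5 CPM, and Emcn had 0 counts in all 6 libraries. Libraries held 24634555 to 28013900 counts in MI+RDN and 21663440 to 24677865 counts in MI.

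The 7 Ly6 genes took 0.232% to 0.302% of all counts in MI+RDN and 0.211% to 0.238% in MI. Ly6e made up 58.8% to 68.5% of the members' counts in MI+RDN and 74.6% to 74.8% in MI, and Ly6c2 21.5% to 29.0% in MI+RDN and 17.1% to 17.8% in MI. The order of expression is given per kilobase of exon, since lengths differ. Length was the union of all annotated exons, 3784 bases for Ly6e, 2740 for Ly6c2 and 1677 for Ly6c1. The transcripts used above for shared windows have 2281, 822 and 844 bases, so the order depends on the length chosen. Ly6e was highest, at 472 ± 92.7 CPM per kb in MI+RDN and 417 ± 37.1 in MI, and Ly6c2 followed at 255 ± 27.0 in MI+RDN and 135 ± 14.4 in MI (SD, n = 3). Ly6g was next, at 135 ± 40.4 CPM per kb in MI+RDN and 46.2 ± 11.1 in MI. The 4 remaining members averaged 24.8 to 41.6 CPM per kb in MI+RDN and 20.4 to 39.3 in MI. Ly6a, Ly6c1, Ly6i and Ly6d followed each other in that order in MI+RDN, and each lay within 1 SD of the next. In MI the order was Ly6d, Ly6a, Ly6i and Ly6c1. There Ly6d lay within 1 SD of Ly6g above it and was apart from Ly6a below it, whereas Ly6a, Ly6i and Ly6c1 lay within 1 SD of their neighbours.

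MI+RDN was set against MI to ask how renal denervation bears on splenic myeloid cells after an infarct. Ly6g, Ly6c1 and Ly6c2 rose, 0 members fell and 4 did not pass (edgeR quasi-likelihood test, Benjamini-Hochberg adjustment over 14849 genes at 0.05). Over all genes tested, 0.296% were called higher, 0.714% lower and 1.01% in either direction. The unadjusted edgeR p was under 0.05 in 2959 of the 14849 genes, a share to set beside the counts given for lists below. The median log2 fold change was 0.67 over the 7 members and 0.0080 over all genes. The groups did not overlap in 4 of 7 members, Ly6a being the additional one, and all 4 were higher in MI+RDN. Over all genes, 26.2% did not overlap, 12.4% with MI+RDN higher and 13.7% with MI+RDN lower.

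Ly6g (ENSMUSG00000022582), the neutrophil antigen, stood at 107, 171 and 103 CPM in MI+RDN replicates 1 to 3, against 50.1, 49.0 and 31.5 CPM in MI replicates 1 to 3. Every MI+RDN library was above every MI library, with MI+RDN replicate 2 the highest and MI replicate 3 the lowest of the 6. The log2 fold change was 1.55 with SE 0.24, a 2.92-fold rise (edgeR, Benjamini-Hochberg adjusted p = 0.0425). It ranked 22 by p among the genes with a positive fold change.

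Ly6c2 (ENSMUSG00000022584), which gave most of the Ly6C counts, had 629, 776 and 689 CPM in MI+RDN and 356, 414 and 338 CPM in MI. The groups were well apart, with 629 CPM the lowest MI+RDN value and 414 CPM the highest MI value. Its log2 fold change was 0.92 with SE 0.13, a 1.89-fold rise (edgeR, Benjamini-Hochberg adjusted p = 0.0364). Ly6c1 (ENSMUSG00000079018), its close paralog, had 59.8, 75.9 and 61.6 CPM in MI+RDN and 35.7, 34.1 and 32.9 CPM in MI. The MI libraries were within 3 CPM of each other, and MI+RDN replicate 2 was again the highest. The log2 fold change was 0.94 with SE 0.11, a 1.92-fold rise (edgeR, Benjamini-Hochberg adjusted p = 0.0237). With the 2 rows added into 1, the log2 fold change was 0.92 with SE 0.13 (edgeR, Benjamini-Hochberg adjusted p = 0.0359).

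The 3 calls lay close to the threshold by edgeR and by limma-voom (limma-voom adjusted p = 0.0455 for Ly6g, 0.0271 for Ly6c1 and 0.0379 for Ly6c2). By the DESeq2 Wald test, which called 1165 genes, adjusted p was 2.5e-08 for Ly6g, 1.2e-08 for Ly6c1 and 4.5e-09 for Ly6c2. With no filter on low counts, adjusted p by edgeR's Benjamini-Hochberg procedure was 0.0793 for Ly6g, 0.0530 for Ly6c1 and 0.0552 for Ly6c2. Leaving out any library other than MI+RDN replicate 2 raised the adjusted p of all 3 above 0.05, so all 3 calls were lost. Without MI+RDN replicate 2, Ly6c2 alone was lost (edgeR, Benjamini-Hochberg adjusted p = 0.0523).

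**Figure D1:**
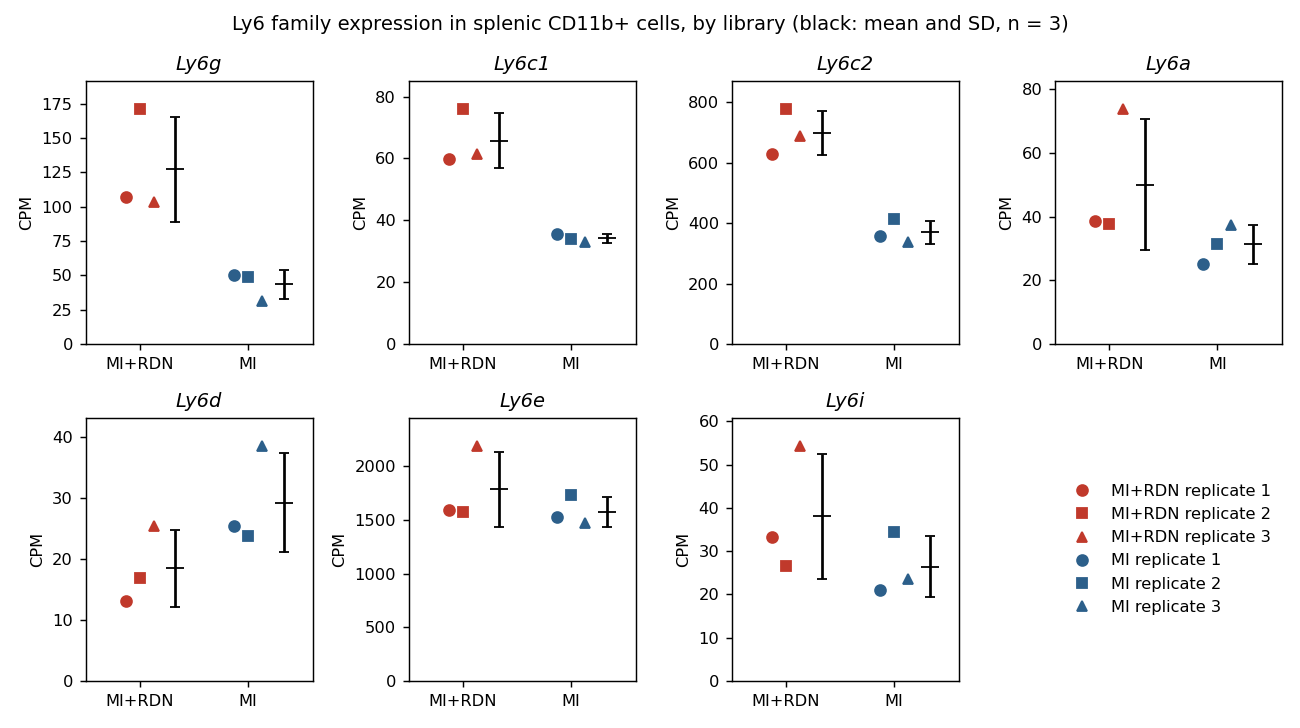
CPM of each Ly6 gene (y axis, linear, from 0) in the 3 MI+RDN and 3 MI libraries, with black marks for the mean and SD. The groups lie apart for Ly6g, Ly6c1, Ly6c2 and, narrowly, Ly6a, and overlap for Ly6d, Ly6e and Ly6i, where MI+RDN replicate 3 is the highest MI+RDN library.

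Ly6a (ENSMUSG00000075602), the Sca-1 gene, had 38.7, 37.9 and 73.8 CPM in MI+RDN and 25.2, 31.5 and 37.4 CPM in MI. The lowest MI+RDN library exceeded the highest MI library by less than 1 CPM, and MI+RDN replicate 3 stood far above the rest. Its log2 fold change of 0.67 (SE 0.27) did not pass (adjusted p = 0.224 by edgeR with Benjamini-Hochberg), and without MI+RDN replicate 3 it was 0.27.

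Ly6i (ENSMUSG00000022586), a paralog of Ly6a in the cluster, had 33.3, 26.5 and 54.3 CPM in MI+RDN and 21.1, 34.5 and 23.7 CPM in MI. The groups overlapped, with MI+RDN replicate 3 again highest (log2 fold change 0.53 ± 0.28 SE, adjusted p = 0.345 by edgeR with Benjamini-Hochberg), and without that library the log2 fold change was 0.16. Ly6e (ENSMUSG00000022587), the broadly expressed antigen, had 1591, 1576 and 2191 CPM in MI+RDN and 1527, 1738 and 1472 CPM in MI, which placed it 42nd in mean CPM among all genes tested. Its log2 fold change of 0.18 (SE 0.17) did not pass (adjusted p = 0.589 by edgeR with Benjamini-Hochberg) and turned to -0.013 without MI+RDN replicate 3.

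Ly6d (ENSMUSG00000034634), the antigen of the B lineage, had 13.05, 16.9 and 25.3 CPM in MI+RDN and 25.3, 23.8 and 38.5 CPM in MI. It was the only member with a negative fold change (log2 fold change -0.67, SE 0.27), and it did not pass (adjusted p = 0.225 by edgeR with Benjamini-Hochberg). The groups overlapped through MI+RDN replicate 3, and the log2 fold change was -0.98 without that library and -0.42 without MI replicate 3.

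**Figure D2:**
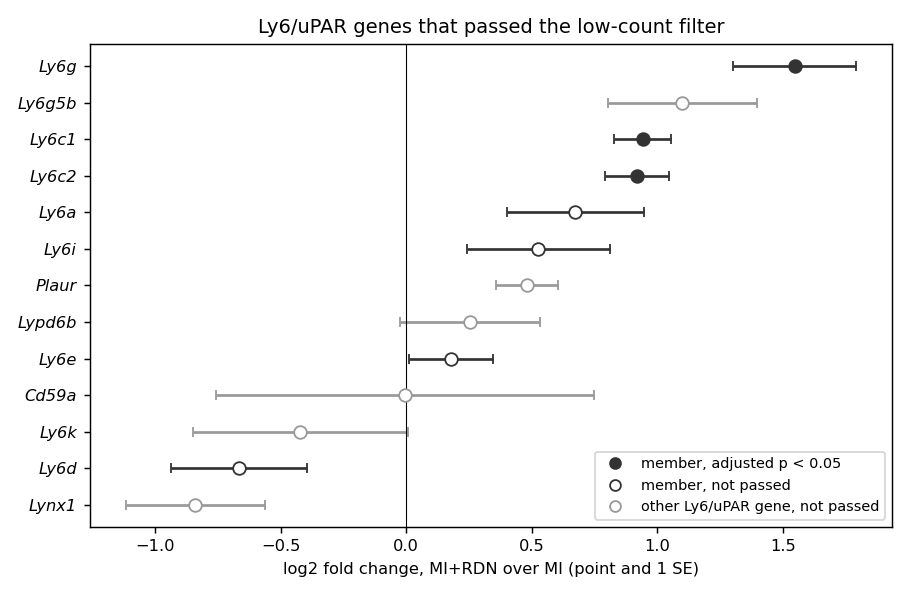
Log2 fold change of MI+RDN over MI with 1 SE (x axis) for the 7 members (dark) and the 6 other Ly6/uPAR genes that passed the filter (grey). Filled points, Ly6g, Ly6c1 and Ly6c2, passed an adjusted p of 0.05, and the others did not.

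The balance between members was then compared within libraries as ratios of counts, in which library size cancels. There were 0.0950, 0.0978 and 0.0894 Ly6c1 counts per Ly6c2 count in MI+RDN, against 0.1002, 0.0824 and 0.0974 in MI. The groups overlapped, and the log2 ratios differed by 0.015 (two-sided exact permutation test over samples, p = 0.9). Its sign turned with 1 library left out, to -0.072 when MI replicate 2 was dropped and -0.014 when MI+RDN replicate 2 was. How reads shared by these 2 paralogs were assigned is not stated, and the part of such reads in this ratio was not tested. Ly6g gave 0.170, 0.220 and 0.150 counts per Ly6c2 count in MI+RDN, against 0.141, 0.119 and 0.0932 in MI. All MI+RDN ratios were above all MI ratios, by 0.62 on the log2 scale (two-sided exact permutation test, p = 0.1, the smallest that 3 against 3 libraries can give). Over the 5 within-library comparisons made, Benjamini-Hochberg adjusted p of these exact permutation tests was 0.167 for the 3 with p = 0.1, 0.5 for Ly6a and 0.9 for Ly6c1 over Ly6c2.

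Neutrophil markers, in a list without Ly6g, were read beside the Ly6g result. The 12 markers summed to 35874, 49665 and 27795 CPM in MI+RDN and to 23274, 23779 and 15184 CPM in MI. All 12 had positive fold changes, their median log2 fold change was 1.0, and the groups overlapped in 6 of 12. The median was 0.61 without MI+RDN replicate 2. By edgeR 1 of 12 passed, with 7 at an unadjusted p under 0.05, 6 past the threshold by DESeq2 and 1 by limma-voom. That gene was Retnlg, which encodes a resistin-like protein of neutrophils, at 1307 ± 213 CPM in MI+RDN and 546 ± 81.2 in MI (SD, n = 3, edgeR Benjamini-Hochberg adjusted p = 0.0316).

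Ly6g stood higher against these markers in MI+RDN. The difference between its log2 CPM and the markers' mean log2 CPM was -4.13, -3.87 and -3.70 in MI+RDN, against -4.58, -4.60 and -4.68 in MI. The groups did not overlap and differed by 0.72 (two-sided exact permutation test, p = 0.1, the smallest possible here), and by 0.62 to 0.84 with any 1 library left out. This measure was chosen after the values were seen, as were those that set Ly6c2 and Ly6a against other lists. The part of neutrophil number in the Ly6g result was not tested.

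Markers of Ly6C-high monocytes, in a list that leaves out the Ly6 genes, summed to 11715, 11766 and 8928 CPM in MI+RDN and to 10824, 9570 and 8960 CPM in MI. The groups overlapped, 5 of 10 markers had positive fold changes and 0 of 10 passed by edgeR, with 4 at an unadjusted p under 0.05, 3 past the threshold by DESeq2 and 0 by limma-voom. The median log2 fold change was -0.033 and the mean 0.094, so they differed in sign. Mgst1, a microsomal glutathione transferase, stood at 178 ± 26.2 CPM in MI+RDN and 120 ± 14.1 in MI (SD, n = 3), and Hp, haptoglobin, at 2102 ± 62.6 in MI+RDN and 1379 ± 239 in MI. Ccr2, the chemokine receptor of inflammatory monocytes, picked out after its values were seen, stood at 765 ± 179 CPM in MI+RDN and 857 ± 154 in MI (SD, n = 3).

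Ly6c2 minus the mean of these markers was -0.35, 0.026 and 0.19 on the log2 scale in MI+RDN, against -1.08, -0.67 and -0.92 in MI. The groups did not overlap and differed by 0.84 (two-sided exact permutation test, p = 0.1, the smallest possible here). It was 0.73 to 0.99 with any 1 library left out. The neutrophil markers above had a median log2 fold change of 1.0. The part of monocyte or neutrophil number in the Ly6c1 and Ly6c2 results was not tested. For patrolling, Ly6C-low monocytes the median over 8 markers was -0.10 on the log2 scale, with 4 positive and 4 negative fold changes. The groups lay apart in 3 of the 8, 1 higher and 2 lower in MI+RDN, and 1 of 8 passed, against 2 by DESeq2 and 0 by limma-voom. That gene was Pglyrp1, a peptidoglycan recognition protein that neutrophils also make, at 408 ± 66.9 CPM in MI+RDN and 211 ± 34.4 in MI (SD, n = 3, edgeR Benjamini-Hochberg adjusted p = 0.0462), and it did not pass with DESeq2 size factors or by limma-voom.

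**Figure D3:**
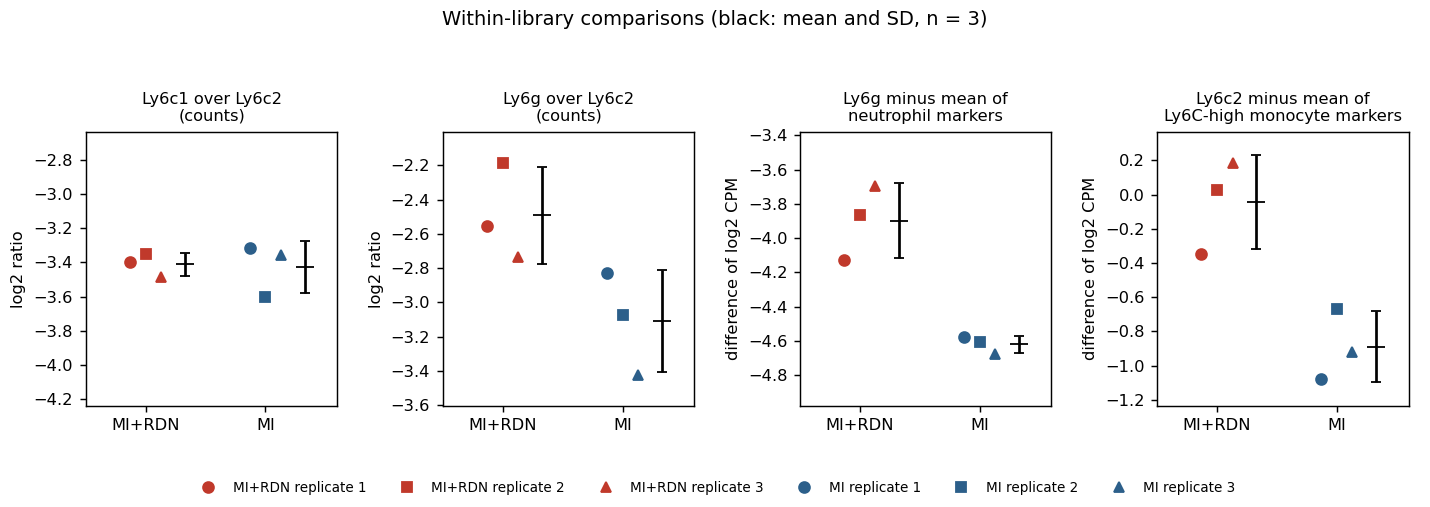
Within-library log2 ratios of counts (2 left panels) and differences between a gene's log2 CPM and the mean log2 CPM of a marker list (2 right panels), by library, with black marks for mean and SD. Ly6c1 over Ly6c2 overlaps between the groups, whereas the other 3 measures are higher in all MI+RDN libraries than in all MI libraries.

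Ly6a, Ly6e and Ly6i are known to respond to interferons, and a list of 30 interferon-stimulated genes without Ly6 members was read beside them. Its genes summed to 5269, 3878 and 7369 CPM in MI+RDN and to 3578, 4682 and 3054 CPM in MI. MI+RDN replicate 3 was the highest library, as it was for Ly6a, Ly6e and Ly6i, and the groups overlapped. The list had 26 positive and 4 negative fold changes, a median of 0.31 on the log2 scale and 0 of 30 past the threshold by edgeR, with 9 at an unadjusted p under 0.05, 5 by DESeq2 and 0 by limma-voom. That median was 0.10 without MI+RDN replicate 3. Gbp2, an interferon-inducible GTPase, stood at 200.2 ± 68.8 CPM in MI+RDN and 95.3 ± 27.3 in MI, and Zbp1, a sensor of Z-form nucleic acid, at 178 ± 49.7 in MI+RDN and 108 ± 20.4 in MI (SD, n = 3). Ly6a minus the mean of the list differed by 0.26 on the log2 scale between the groups, which overlapped (two-sided exact permutation test, p = 0.4). With a library dropped, the difference was 0.15 for MI+RDN replicate 3 or MI replicate 1, 0.12 for MI replicate 2 and 0.50 for MI replicate 3. The part of interferon response in the Ly6 values was not tested.

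Genes most like each member were found by the root mean square difference of log2 CPM over the 6 libraries, after each gene was centred on its own mean, among 11148 genes. Ly6e was close to Ifi35 (0.018) and H2-T23 (0.049), and Ly6i to Ifi27l2a (0.065), Irf7 (0.13) and Cfap126 (0.13). Ly6a was closest to Plekha6 (0.16), Adrb1 (0.18) and H2-Q1 (0.18). The median over all those genes was 0.28 for Ly6e, 0.49 for Ly6i and 0.52 for Ly6a. Ly6c1 was closest to Trem2 (0.049), Msrb2 (0.0987) and Prdx5 (0.12), and Ly6c2 to Prdx5 (0.093), Msra (0.11) and Rps6ka2 (0.11), both with a median of 0.51 over all genes. Ly6g was closest to Gnb5 (0.16), Tmem40 (0.19) and Chil5 (0.21), with a median of 0.84. Ly6d was closest to Fzd1 (0.0899), Il1a (0.10) and Dnaja4 (0.11), with a median of 0.53. Some of these genes had few counts. Fzd1, Il1a and Dnaja4 averaged 0.797, 0.886 and 0.979 CPM in MI+RDN and 1.23, 1.36 and 1.78 in MI. Gnb5 averaged 2.88 CPM in MI+RDN and 1.03 in MI. Between members, Ly6c1 and Ly6c2 were the closest pair, at 0.096, and Ly6g and Ly6d the farthest, at 1.25. The part of shared reads in the closeness of Ly6c1 and Ly6c2 was not tested.

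**Figure D4:**
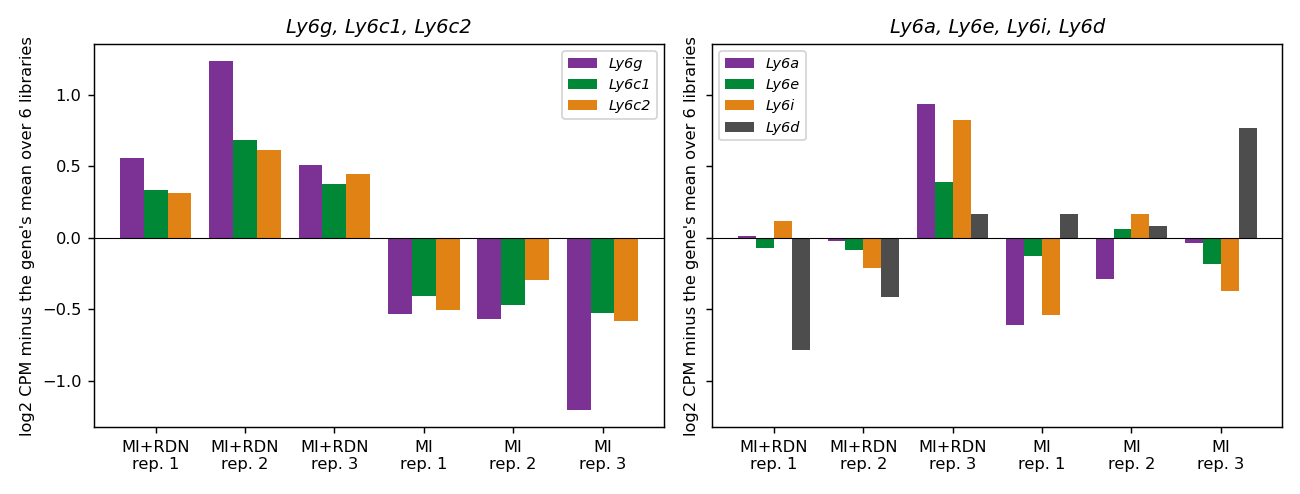
Log2 CPM of each member minus its own mean over the 6 libraries (y axis), with 1 bar per gene in each library. Ly6g, Ly6c1 and Ly6c2 are above 0 in all MI+RDN libraries and below 0 in all MI libraries, and Ly6a, Ly6e and Ly6i are highest in MI+RDN replicate 3.

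B cell markers stood beside Ly6d. Their 8 genes summed to 240, 239 and 384 CPM in MI+RDN and to 536, 465 and 717 CPM in MI. All 8 had negative fold changes and groups that did not overlap, where 13.7% of all genes were apart in that direction. Their median was -0.97 on the log2 scale, and 0 of 8 passed by edgeR or limma-voom, against 8 at an unadjusted p under 0.05 and 8 by DESeq2. MI+RDN replicate 3 was the highest MI+RDN library and MI replicate 3 the highest MI library, as for Ly6d. Fcer2a, the low-affinity IgE receptor, stood at 8.57 ± 2.98 CPM in MI+RDN and 25.1 ± 6.29 CPM in MI (SD, n = 3).

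Plasmacytoid dendritic cells also carry Ly6C and Ly6D. Their 8 markers summed to 171, 162 and 198 CPM in MI+RDN and to 187, 197 and 173 CPM in MI. Most of each sum came from Tcf4, at 58.1 to 77.2 CPM, Runx2, at 54.8 to 77.8 CPM, and Bst2, at 30.1 to 54.4 CPM. Bst2 is also on the list of interferon-stimulated genes. The median over 6 tested was -0.53 on the log2 scale, with 4 negative and 2 positive fold changes. Of these 0 passed by edgeR, DESeq2 or limma-voom, with 3 at an unadjusted p under 0.05. The lowest p belonged to Ccr9 and Siglech, both at few counts. Siglech, their defining lectin, stood at 0.422 ± 0.148 CPM in MI+RDN and 0.9996 ± 0.0901 in MI, and Ccr9, a chemokine receptor, at 1.19 ± 0.106 in MI+RDN and 2.35 ± 0.792 in MI (SD, n = 3).

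Plasma cells carry Sca-1 and Ly6C too, and their 7 markers summed to 807, 728 and 1179 CPM in MI+RDN and to 824, 680 and 1001 CPM in MI. The groups overlapped, the median was 0.15 on the log2 scale, and 0 of 7 passed by edgeR or limma-voom, with 1 at an unadjusted p under 0.05 and 1 by DESeq2. Prdm1, a factor of plasma cell formation, stood at 14.5 ± 2.39 CPM in MI+RDN and 20.9 ± 0.830 in MI, and Derl3, of protein export from the endoplasmic reticulum, at 10.3 ± 5.56 in MI+RDN and 6.46 ± 0.342 in MI (SD, n = 3). The part of these cells in the Ly6 values was not tested.

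Other lineages were read for the same purpose. The median for conventional DC2 markers was -0.91 on the log2 scale, 3 of 8 were lower, and Cd209a, a C-type lectin, was among them at 26.1 ± 8.83 CPM in MI+RDN and 116 ± 44.1 in MI (SD, n = 3, edgeR Benjamini-Hochberg adjusted p = 0.0401). Zbtb46, a transcription factor of dendritic cells, and the lectin Clec10a were the others, with log2 fold changes of -1.15 and -1.16 (edgeR, Benjamini-Hochberg adjusted p = 0.0401 and 0.0439). For DC2 markers 5 had an unadjusted p under 0.05, and 5 passed by DESeq2 and 2, Cd209a and Zbtb46, by limma-voom. T cell markers had a median of -1.10, with 8 of 8 at an unadjusted p under 0.05, 7 past the threshold by DESeq2, 0 by limma-voom and 1 by edgeR, Cd3d of the T cell receptor complex, at 1.66 ± 0.286 CPM in MI+RDN and 4.59 ± 0.740 in MI (SD, n = 3, edgeR Benjamini-Hochberg adjusted p = 0.0442). Medians were -0.69 for splenic macrophages, -0.063 for NK cells, -1.26 for erythroid cells and -0.33 for endothelial cells, and 0 genes of these 4 lists passed by edgeR or limma-voom. By DESeq2, 2 macrophage and 5 erythroid genes passed, and 0 of the NK and endothelial lists. At an unadjusted p under 0.05 there were 4 macrophage, 1 NK, 5 erythroid and 1 endothelial genes. The NK mean, 0.0073, differed in sign from its median, and the endothelial median rested on 2 tested genes, Pecam1 and Kdr.

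Other genes of the Ly6/uPAR family were mostly silent. Of 32 in the table, 19 had 0 counts in all libraries, which allows up to 0.11 to 0.135 CPM per library by counting error alone. In 7 others no library exceeded 13 counts, and 6 passed the filter. Of those 6, 3 had positive and 3 negative fold changes, the median was 0.12 on the log2 scale (-0.018 without scaling factors), and 0 passed by edgeR or limma-voom. By DESeq2 2 passed, Ly6g5b and Plaur, and 3 had an unadjusted edgeR p under 0.05.

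Plaur, the urokinase receptor of myeloid cells, was the most abundant of them, at 241, 279 and 262 CPM in MI+RDN and 209, 194 and 158 CPM in MI (log2 fold change 0.48 ± 0.12 SE, adjusted p = 0.0961 by edgeR with Benjamini-Hochberg). Its groups did not overlap. Ly6g5b had 2.85, 3.95 and 2.11 CPM in MI+RDN and 1.45, 1.40 and 1.31 CPM in MI (log2 fold change 1.10 ± 0.30 SE, adjusted p = 0.105 by edgeR with Benjamini-Hochberg). Lynx1, a modulator of nicotinic acetylcholine receptors, had 4.003, 3.69 and 7.48 CPM in MI+RDN and 8.69, 9.11 and 9.30 CPM in MI (log2 fold change -0.84 ± 0.28 SE, adjusted p = 0.154 by edgeR with Benjamini-Hochberg). The groups were apart for both, with MI+RDN higher for Ly6g5b and lower for Lynx1. Lypd6b, Ly6k and the complement inhibitor Cd59a had log2 fold changes of 0.25, -0.42 and -0.0063.

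The GPI anchor that carries Ly6 proteins is built by a chain of enzymes in the endoplasmic reticulum. A list of genes that build, remodel or cleave the anchor had 29 measured. These summed to 745 to 757 CPM in MI+RDN and 699 to 720 CPM in MI. There were 18 positive and 11 negative fold changes, and a median of 0.038 on the log2 scale that turned to -0.099 without scaling factors, where the median of all genes was -0.13. By edgeR and limma-voom 0 passed, against 1 by DESeq2 and 5 at an unadjusted edgeR p under 0.05. Pgap1, which remodels the anchor, stood at 19.6 ± 0.955 CPM in MI+RDN and 27.4 ± 2.44 in MI, and Pigx, of the first mannosyltransferase, at 38.2 ± 1.91 in MI+RDN and 31.1 ± 1.14 in MI (SD, n = 3).

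**Figure D5:**
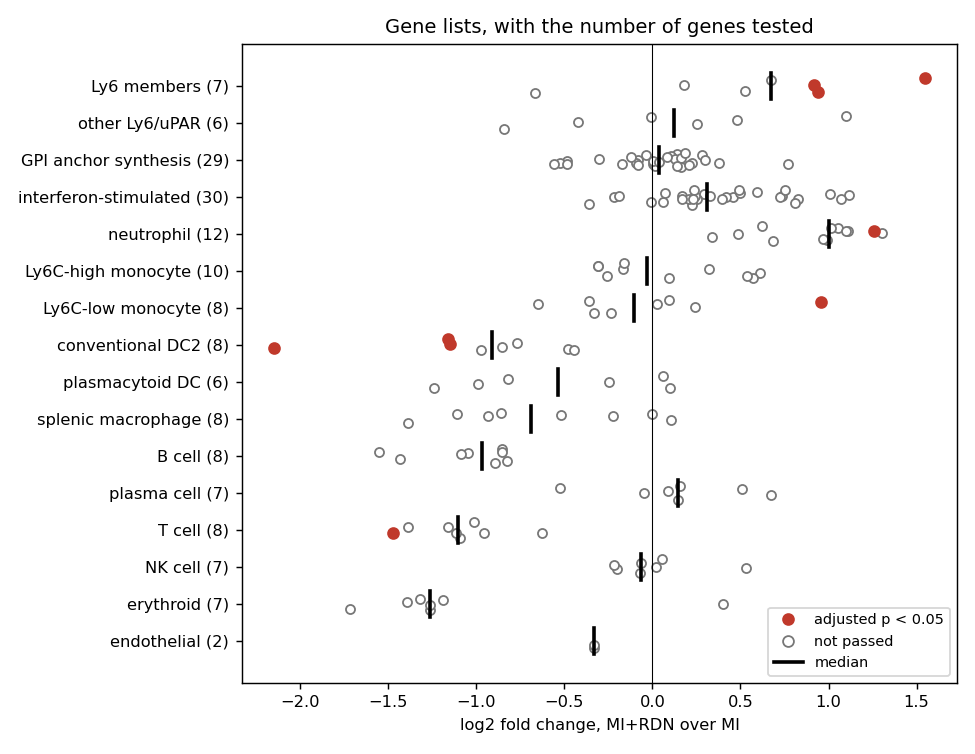
Log2 fold change of MI+RDN over MI (x axis) for each tested gene of the lists (rows, with the number of genes tested), with a black bar for the list median and red points for genes past an adjusted p of 0.05. Neutrophil genes lie to the right (median 1.0), Ly6C-high monocyte genes lie on both sides of 0 (median -0.033), and B and T cell genes lie to the left (medians -0.97 and -1.10).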

How the data were processed

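The authors deposited 1 table of whole-number counts per Ensembl gene, with no normalisation, and 1 column per library. The submitters' processing notes name FastQC 0.11.2, STAR and the build GRCm39, and libraries were strand-specific per the labels' protocols. The counting tool, strand setting, read length and handling of reads shared between paralogs are not given in the sources used. Symbols (55154 of 55335 IDs), exon lengths and transcripts came from a GRCm38 annotation and promoters from RefSeq GRCm38.p6.

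Counts were analysed with R 4.3.3, edgeR 4.0.16 (filterByExpr, TMM factors, quasi-likelihood F test, Benjamini-Hochberg adjustment over 14849 genes) and limma 3.58.1 and DESeq2 1.42.0 as alternatives. SE was taken as the size of the fold change (log2) divided by the root of F. Log2 CPM used a prior count of 2. Other scaling, filters and tools, a replicate block, a summed Ly6c row and leaving out each library were tried. The procedure was tested on simulated data. Depth was 21663440 to 28013900 counts per library, and the biological coefficient of variation was 20.7%. No 2 libraries of the same group agreed within sampling noise. Coding sequences were aligned with Biopython 1.88.

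The members and lists were chosen with earlier results of these data known. Named genes were the members, the other Ly6/uPAR genes that passed the filter, up to 3 passing genes per list by p (2 where none passed), Itgam, and the 3 genes most like each member with a mean of at least 1 CPM. Members, pseudogenes, predicted genes and segments of antigen receptors could not be among the last. Some genes that this rule names are not reported here.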

Additional observations from a re-analysis of the deposited data

How the results depend on the processing

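Log2 fold changes kept their sign in all 15 alternatives for the members other than Ly6e, which turned negative without MI+RDN replicate 3 (-0.013, and up to 0.26 with another library left out). With no filter on low counts the number of members past the threshold was 0, with 5 at an unadjusted p under 0.05, and log2 fold changes of 1.56 for Ly6g, 0.95 for Ly6c1, 0.93 for Ly6c2 and 0.93 for the summed Ly6c row. It was 2 with Ly6c1 and Ly6c2 added into 1 row and 3 in the 8 other settings that keep every library. Dropping 1 library, which leaves fewer samples, gave 0 to 2. The log2 fold changes ran from 1.26 to 1.66 for Ly6g, 0.81 to 1.01 for Ly6c1, 0.82 to 1.01 for Ly6c2 and 0.82 to 1.003 for their sum, and adjusted p for the 3 members ran from 0.0365 to 0.132.

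Over all genes, 150 passed (44 higher, 106 lower). The count was 475 without scaling factors (62 higher, 413 lower), 21 with no filter, 290 at a mean of at least 5 CPM, 1165 by the DESeq2 Wald test (561 higher, 604 lower), 277 by robust edgeR and 277 when antigen receptor, haemoglobin and mitochondrial genes were dropped. It was 0 to 67 with 1 library left out. The 2 counts of 0 by edgeR, without MI+RDN replicate 1 and without MI replicate 3, stood beside 2323 and 2084 with unadjusted p under 0.05. Same-numbered libraries correlated at -0.065 to 0.064 in their deviations from group means, and the best other-numbered ones at -0.018 to 0.094. These values showed no clear pairing by replicate number, but with 3 libraries a group they cannot exclude it. With the replicate block 87 genes passed (23 higher, 64 lower), the 3 members stayed called, and 10 list genes passed. Of the 6 list genes called without the block, Retnlg and Zbtb46 were among those 10, and Cd209a, Clec10a, Cd3d and Pglyrp1 were not.

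List genes past the threshold numbered 25 without scaling factors, 0 with no filter, 11 at a mean of at least 5 CPM, 45 by DESeq2, 3 by limma-voom, 10 by robust edgeR, 11 after dropping antigen receptor, haemoglobin and mitochondrial genes, and 0 to 1 with 1 library left out. Of the other Ly6/uPAR genes, 2 passed by DESeq2. List medians near 0 turned sign. That of the other Ly6/uPAR genes was -0.018 without scaling factors and -0.36 to 0.34 with 1 library left out. For the GPI anchor list it was -0.099 without scaling factors and -0.0066 to 0.062 with 1 library left out. Leaving out 1 library gave -0.23 to 0.13 for Ly6C-high monocytes, -0.33 to 0.37 for plasma cells and -0.22 to 0.16 for NK cells, and the plasmacytoid median was 0.032 at a mean of at least 5 CPM. The Ly6c1 to Ly6c2 difference ran from -0.072 to 0.069 and the Ly6g to Ly6c2 difference from 0.46 to 0.76. The cause of these shifts was not tested. With 3 libraries a group, a p that misses the threshold does not show that levels were equal.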

Other observations

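The 7 members lie in one stretch of chromosome 15. From Ly6d to Ly6g the GRCm38 annotation lists 25 genes, of which 15 passed the filter, and 8 of those were not members. Of the 8, 0 passed by edgeR and 4 had an unadjusted p under 0.05. The genes named next were picked out after their values were seen.

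I830127L07Rik, a transcribed pseudogene between Ly6c2 and Ly6g, had more counts than Ly6g. It stood at 267, 361 and 205 CPM in MI+RDN and 143, 137 and 123 CPM in MI, with groups that did not overlap (log2 fold change 1.05 ± 0.19 SE, adjusted p = 0.0523 by edgeR with Benjamini-Hochberg). MI+RDN replicate 2 was the highest library, as for Ly6g, Ly6c1 and Ly6c2. Gm5960, a pseudogene between Ly6c1 and Ly6c2, had 3.77, 3.21 and 4.38 CPM in MI+RDN and 1.19, 1.76 and 1.83 CPM in MI (log2 fold change 1.24 ± 0.27 SE, adjusted p = 0.0671 by edgeR with Benjamini-Hochberg). At the other end of the stretch Ly6d had a log2 fold change of -0.67 and Ly6k one of -0.42, and neither passed. I830127L07Rik shared some exact 50-base windows with Ly6c2, Ly6a and Ly6i and no 100-base window with any member. How reads from such windows were assigned is not stated.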
